A study of Mus musculus with 4 samples.

Results

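The data comprised 44 probe sets whose signal was higher on both arrays of TCQA-treated mouse skin than on both arrays of control skin, by at least 0.7 on the log2 scale. They were chosen by the measured values themselves: for each of 45037 probe sets outside the Affymetrix controls, the higher of the 2 control values was subtracted from the lower of the 2 TCQA values, and this margin had to reach 0.7. The share that passed was 0.0977%. Because the rule used the same contrast, the differences below are a description with no test.

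The arrays were Affymetrix mouse PM array strips, on which several short probes (a probe set) report the level of a transcript. RNA was taken from back skin of male C3H mice, a pigmented strain, with no genetic change stated. The mice were 8 weeks old before treatment began, and therefore older when the skin was collected. In the TCQA group (arrays TCQA 1 and TCQA 2) the back was treated daily for a month with 1% TCQA, tri-O-caffeoylquinic acid, an ester of quinic acid with caffeic acid. In the control group (arrays Control 1 and Control 2) the vehicle, Milli-Q water, was applied in the same way. The study dissolved TCQA in aqueous ethanol before diluting it in water, and states no ethanol for the control. In both groups the back was first shaved under isoflurane, to bring resting follicles into the growth phase. At the end, hair of the treated area was plucked and the skin was collected. The labels date the collection to day 30 of treatment and the study's account to a later day. The study allowed a week of acclimation before treatment, and its text does not say whether the later day counts that week. The study kept 5 mice per group, but no source states how many of them an array represents, and the spread between arrays may therefore be technical. The question behind the comparison was whether TCQA changes genes of hair pigmentation and of the β-catenin pathway.

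Hair colour is made by melanocytes of the hair bulb, which pass melanin to the growing shaft during the growth phase of the follicle. Wnt ligands bind Frizzled receptors and LRP coreceptors on the cell surface, and in the canonical branch this stabilizes β-catenin, which enters the nucleus and acts with TCF/LEF factors on target genes. In melanocytes these targets include Mitf, the factor that drives the enzymes of melanin synthesis. Whole skin also holds keratinocytes, fibroblasts, fat, vessels, nerves and underlying muscle, so in bulk RNA fewer cells of a type and less RNA per cell cannot be told apart.

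The 4 arrays did not stand alike. Control 1 correlated at r = 0.413 with Control 2 over all probe sets, whereas TCQA 1 correlated at r = 0.956 with Control 2 and at r = 0.886 with TCQA 2. The 5 keratinocyte genes used as markers had a median log2 signal of 2.37 on TCQA 1 and 2.70 on TCQA 2, against 8.16 on Control 1 and 2.86 on Control 2. For 5 skeletal muscle genes it was 1.81 and 2.08 on the TCQA arrays, against 10.9 on Control 1 and 1.98 on Control 2. Fibroblast, adipocyte and endothelial medians were also highest on Control 1. Melanocyte, hair follicle and germ cell medians were lowest there. For 9 melanocyte genes the median was 2.90 and 2.71 on the TCQA arrays, against 2.08 on Control 1 and 2.70 on Control 2. For 7 hair follicle genes it was 2.70 and 2.70 on the TCQA arrays, against 1.99 on Control 1 and 2.68 on Control 2. For leukocytes and nerve Control 1 was neither highest nor lowest. The defining keratinocyte markers of skin were thus near the median of all probe sets on TCQA 1, TCQA 2 and Control 2. None of the marker probe sets, 2 to 16 per cell type, was among the 44. At the rate of 0.0977% over all probe sets, 0 is what so few give. With limma, 0 of 45037 probe sets (0%) had an adjusted p under 0.05, 141 had an unadjusted p under 0.05, and an unmoderated test gave 754 at that unadjusted level and 0 after adjustment.

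Across the 44 probe sets the median log2 signal was 3.46 on TCQA 1 and 3.70 on TCQA 2, against 2.05 on Control 1 and 2.52 on Control 2. Over all probe sets these medians were 2.54 on TCQA 1 and 2.49 on TCQA 2, against 2.30 on Control 1 and 2.55 on Control 2. The difference of the TCQA mean from the control mean ranged from 0.81 to 2.14 with a median of 1.10, which corresponds to 1.75-fold to 4.41-fold and a median of 2.14-fold. It was at least 1 on the log2 scale, or 2-fold, in 34 of the 44, but in only 8 with Control 1 left out, those being Fzd2, Jpx, Nisch, Prr22, Uqcrq, 4930403D09Rik and the unnamed 1457632_PM_s_at and 1431412_PM_at. The margin was tighter, with a median of 0.77, and only Fzd2 had a margin of 1 or more.

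**Figure D1:**
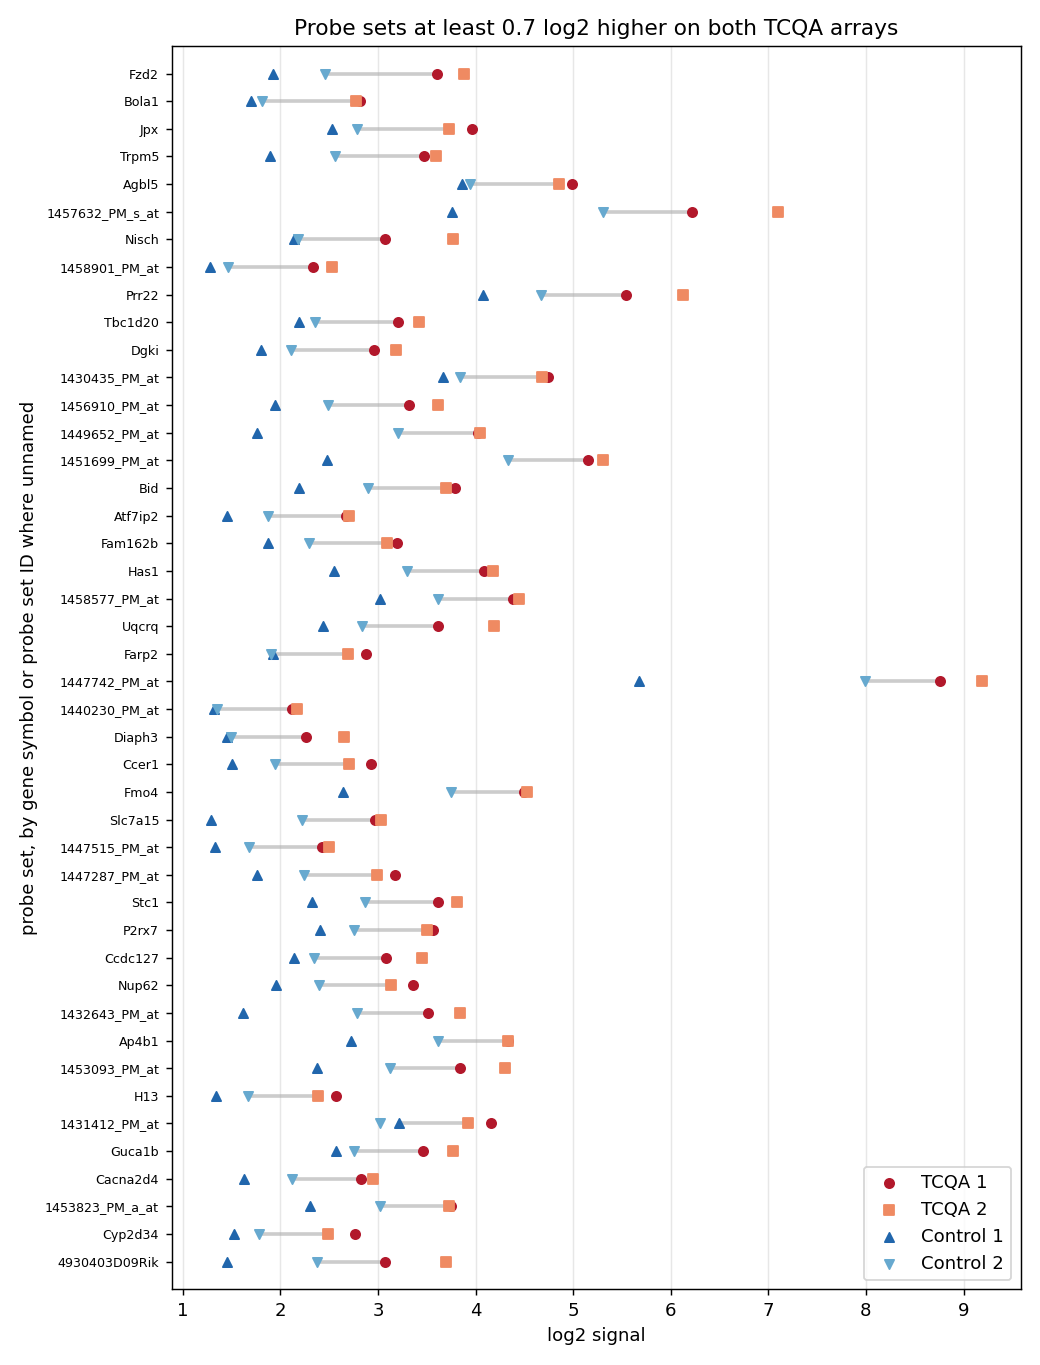
Log2 signal (horizontal axis) of each of the 44 probe sets (rows, by gene symbol or probe set ID, largest margin at the top) on TCQA 1, TCQA 2, Control 1 and Control 2. The grey bar is the margin, from the higher control to the lower TCQA value; most rows lie below 5, and the row of 1447742_PM_at reaches 9.19 on TCQA 2.

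The array that set the margin was nearly always Control 2. It was the higher control in 42 of the 44 (95.5%), and in 67% of all probe sets. The median margin of the lower TCQA value was 1.21 over Control 1 and 0.77 over Control 2. Without Control 1, the rule was met by 90 probe sets, which include the 44 by construction, and the median difference of the 44 was 0.88. Without Control 2, it was met by 7932, without TCQA 1 by 1329 and without TCQA 2 by 278. The TCQA arrays lay close together, with a median gap of 0.20 over the 44 and 0.27 over all probe sets, and the control arrays farther apart, with a median gap of 0.44 over the 44 and 0.69 over all. In 11 of the 44 the gap between the controls was at least as large as the margin.

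The threshold did not fall at a break in the values. Just inside it were the unnamed probe set 1453823_PM_a_at with a margin of 0.707, Cyp2d34 with 0.703 and 4930403D09Rik with 0.70008. Just outside it were Dnajc16 with 0.69997, Epx with 0.694 and the unnamed 1421496_PM_at with 0.687. The values of Epx, the eosinophil peroxidase, were 2.86 and 3.02 on the TCQA arrays, against 1.48 and 2.16 on the control arrays. Lowering the margin to 0.5 admitted 230 probe sets, and raising it to 1 left 1.

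The same margin was then counted over the other ways to put the 4 arrays into pairs, as a description of the arrays. TCQA over control gave 44 and control over TCQA gave 89. With TCQA 1 and Control 1 set over TCQA 2 and Control 2 the count was 64, and in the opposite direction 38. With TCQA 1 and Control 2 set over TCQA 2 and Control 1 it was 849, and in the opposite direction 351. Both directions summed to 133 for the labelled groups, to 102 for the pairs that share a number and to 1200 for the crossed pairs. The labelled groups thus gave a sum between those of the mixed pairs.

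**Figure D2:**
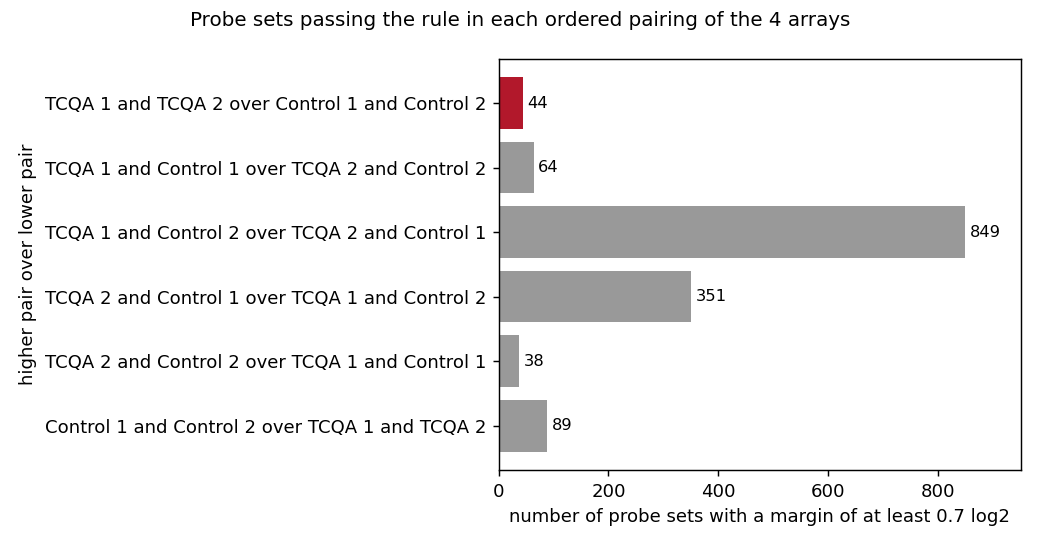
Number of probe sets (horizontal axis) whose lower value in the higher pair of arrays exceeded the higher value in the lower pair by at least 0.7 log2, for the 6 ordered pairings of the 4 arrays (rows). The 44 of TCQA over control (red) lie close to the 38 and 64 of the pairs that share a number, and the crossed pairs give 849 and 351.

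The largest margin of TCQA over control was 1.15, the smallest of the 6 largest margins. It was 1.57 for control over TCQA, 1.79 and 1.58 for the pairs that share a number, and 2.50 and 6.26 for the crossed pairs. With no minimum margin, both TCQA values lay above both control values in 8062 probe sets (17.9%) and below both in 4892 (10.9%).

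Of the 44 probe sets, 29 name 1 gene in the platform annotation and 15 are unnamed here. The 29 probe sets name 29 different genes, 27 coding for proteins and 2 for long non-coding RNAs, so no gene met the rule with more than 1 probe set. The unlisted share, 34.1%, was near the 34.6% of all probe sets.

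The named genes were placed in role groups after their values were seen. Genes of each role were not counted over the whole array, so the group sizes have no background share. Under signalling and channels were placed 7 of the 29, with differences between 0.95 and 1.55. The largest margin of all was that of Fzd2 (probe set 1418532_PM_at, chr11:102604431-102608058 in GRCm38.p6), a Frizzled receptor for Wnt ligands. Its log2 signal was 3.60 and 3.88 on the TCQA arrays, against 1.92 and 2.46 on the control arrays. The means were 3.74 ± 0.19 on TCQA and 2.19 ± 0.38 on control (SD, n = 2 each), a difference of 1.55 and a margin of 1.15. Control 1 was the lowest array, and over Control 2 alone the TCQA mean was higher by 1.28.

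The other probe sets of Fzd2 differed from the first. Probe set 1418534_PM_at read 3.70 and 3.70 on the TCQA arrays, against 3.59 and 3.51 on the control arrays, a difference of 0.15. Probe set 1418533_PM_s_at read 1.72 and 1.79 on the TCQA arrays, against 2.32 and 1.90 on the control arrays, a difference of -0.36. The groups did not overlap in either, in opposite directions.

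Fzd2 was the only one of the 29 genes in any of the 14 gene lists examined. Over all probe sets 0.0977% met the rule, 17.9% were non-overlapping and higher on TCQA and 10.9% non-overlapping and lower. In the Wnt and β-catenin list, 1 of 106 probe sets met the rule, 14 (13.2%) were non-overlapping and higher and 18 (17.0%) lower. The median difference of the 106 was 0.07, and -0.01 over Control 2 alone. Over the 21 probe sets of all 10 Frizzled genes, 6 (28.6%) were non-overlapping and higher and 4 (19.0%) lower. The median difference of the 21 was 0.09, and -0.07 over Control 2 alone. Fzd8 read 4.11 and 3.69 on the TCQA arrays, against 2.80 and 3.49 on the control arrays, and Fzd10 read 5.06 and 4.91 on TCQA, against 4.50 and 4.69 on control. On the lower side, Fzd3 (1434788_PM_at) read 3.13 and 3.32 on the TCQA arrays, against 4.14 and 3.93 on the control arrays, and Fzd5 (1455604_PM_at) read 2.79 and 2.29 on TCQA, against 3.16 and 3.18 on control. Fzd7 (1450044_PM_at) read 3.25 and 3.01 on the TCQA arrays, against 6.96 on Control 1 and 3.29 on Control 2. These Frizzled genes were named after their values were seen. The pigment and melanocyte list had 0 of 60 probe sets that met the rule, and its largest margin was 0.30. Of the 60, 12 (20%) were non-overlapping and higher and 6 (10%) lower. The median difference of the 60 was 0.31, beside 0.12 of all probe sets. Over Control 2 alone it was -0.03, beside -0.02 of all. The list of the hair follicle and its cycle had 0 of 65, with 33.8% non-overlapping and higher, 7.69% lower and a largest margin of 0.38. The median difference of the 65 was 0.16, and 0.09 over Control 2 alone. Counts of 0 in lists of this size are what the rate of 0.0977% gives.

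Trpm5, the calcium-activated cation channel best known from taste cells, had the largest margin among the channels. Its values were 3.47 and 3.60 on the TCQA arrays, against 1.89 and 2.55 on the control arrays, a difference of 1.31. The other probe sets of Trpm5 overlapped between groups, as on 1418783_PM_at, with 2.88 and 2.94 on the TCQA arrays, against 2.07 and 2.996 on the control arrays. Among 15 probe sets of the 8 Trpm channels, the Trpm5 probe set was the only one non-overlapping and higher (6.67%, beside 17.9% of all probe sets), and 1 of Trpm7, 1416801_PM_at, was non-overlapping and lower, with 2.98 and 3.08 on the TCQA arrays, against 4.91 and 3.27 on the control arrays. For Trpm1, the melanocyte channel of that family, 1418935_PM_at read 2.89 and 3.09 on the TCQA arrays, against 2.03 and 3.10 on the control arrays, and the groups overlapped.

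P2rx7, an ATP-gated ion channel of immune cells, read 3.56 and 3.50 on the TCQA arrays, against 2.40 and 2.76 on the control arrays. Cacna2d4, an accessory calcium channel subunit of the retina, read 2.82 and 2.94 on TCQA, against 1.63 and 2.12 on control. Both had small gaps within the TCQA pair, and the other probe sets of both genes overlapped between groups. Guca1b, which activates guanylate cyclase in photoreceptors, read 3.46 and 3.77 on the TCQA arrays, against 2.57 and 2.75 on the control arrays, and its other probe set, 1425138_PM_at, overlapped with 4.11 and 3.36 on TCQA, against 3.27 and 4.31 on control.

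Stc1, the secreted hormone stanniocalcin, read 3.61 and 3.81 on the TCQA arrays, against 2.32 and 2.87 on the control arrays. Dgki, a diacylglycerol kinase that turns the lipid messenger diacylglycerol into phosphatidic acid, read 2.96 and 3.19 on TCQA, against 1.80 and 2.11 on control. The differences were both 1.12. The second Stc1 probe set, 1421984_PM_at, had 2.53 and 2.51 on the TCQA arrays, against 2.21 and 2.75 on the control arrays, so Control 2 was its highest array.

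Under mitochondria and cell death were placed 3 of the named genes. Bola1, a mitochondrial protein of the BolA family, had the second largest margin, 0.96. It read 2.81 and 2.78 on the TCQA arrays, against 1.70 and 1.81 on the control arrays, with means of 2.79 ± 0.03 on TCQA and 1.75 ± 0.08 on control (SD, n = 2 each), so its replicates were among the tightest of the set. Its second probe set, 1452637_PM_a_at, read 2.48 and 2.67 on the TCQA arrays, against 2.85 and 2.16 on the control arrays, and the groups overlapped.

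Uqcrq, a small subunit of respiratory complex III, had values of 3.61 and 4.19 on the TCQA arrays, against 2.44 and 2.84 on the control arrays, a difference of 1.26. A different probe set of the same gene, 1430326_PM_s_at, read 1.50 and 1.69 on the TCQA arrays, against 7.34 on Control 1 and 1.51 on Control 2, a difference of -2.82. The 14 probe sets of the complex III genes had a median difference of -2.08, and relative to Control 2 alone the median difference was -0.04. The Uqcrq probe set was the only one of these 14 that was non-overlapping and higher (7.14%, beside 17.9% of all probe sets), and 5 (35.7%, beside 10.9%) were non-overlapping and lower.

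Bid, a BH3-only protein that links death receptors to the mitochondrial route of apoptosis, read 3.79 and 3.70 on the TCQA arrays, against 2.19 and 2.90 on the control arrays. The difference was 1.20, and its other probe sets differed by 0.31 and 0.40. Of these, 1447873_PM_x_at was non-overlapping with 1.20 and 1.42 on the TCQA arrays, against 0.80 and 1.01 on the control arrays, at the dim end of the scale. Over 35 probe sets of the Bcl2 family 10 (28.6%, beside 17.9% of all probe sets) were non-overlapping and higher and 4 (11.4%, beside 10.9%) lower. The median difference of the 35 was 0.15, and -0.10 over Control 2 alone.

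The group of the cytoskeleton, membranes and transport held 8 genes with differences between 0.87 and 1.26. Agbl5, a carboxypeptidase that trims glutamates from tubulin, read 4.99 and 4.85 on the TCQA arrays, against 3.86 and 3.94 on the control arrays, with means of 4.92 ± 0.10 on TCQA and 3.90 ± 0.06 on control (SD, n = 2 each). The difference was 1.02, and both pairs were tight. The other Agbl5 probe sets overlapped between groups, with differences of 0.06 and -0.34.

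Nisch, which codes for nischarin, an integrin-binding protein, read 3.08 and 3.76 on the TCQA arrays, against 2.14 and 2.18 on the control arrays. It was measured by 5 probe sets, and the others had differences between -1.61 and 0.18. Probe set 1452156_PM_a_at read 3.83 and 4.34 on the TCQA arrays, against 7.43 on Control 1 and 3.95 on Control 2. Of the others, only 1451338_PM_at was non-overlapping and higher, with a margin of 0.09.

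Tbc1d20, a Rab GTPase-activating protein, read 3.21 and 3.42 on the TCQA arrays, against 2.19 and 2.35 on the control arrays. A brighter probe set of Tbc1d20, 1426644_PM_at, overlapped between groups with a difference of -0.55. A dimmer one, 1447688_PM_at, was non-overlapping and higher with a margin of 0.10. Farp2 read 2.88 and 2.69 on TCQA, against 1.92 and 1.91 on control. Farp2 was one of only 2 probe sets, with the unnamed 1431412_PM_at, whose higher control was Control 1. Diaph3, a formin that nucleates actin filaments, read 2.26 and 2.65 on the TCQA arrays, against 1.45 and 1.50 on the control arrays.

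Ap4b1, a subunit of the AP-4 adaptor of vesicle transport, read 4.33 and 4.33 on the TCQA arrays, against 2.73 and 3.61 on the control arrays. Its other probe set, 1416631_PM_at, read 2.26 and 2.70 on TCQA, against 3.66 and 2.79 on control, so that both TCQA values lay below both control values. Ap4b1 and Guca1b were the 2 genes whose other probe sets all had negative differences.

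Nup62, a protein of the central channel of the nuclear pore, read 3.36 and 3.13 on the TCQA arrays, against 1.95 and 2.40 on the control arrays. The other probe sets of Nup62 overlapped between groups. H13, the signal peptide peptidase, read 2.57 and 2.39 on TCQA, against 1.34 and 1.67 on control. H13 had 6 probe sets in all, and 1438456_PM_at came nearest to the rule among the other probe sets of these genes, with 2.55 and 2.46 on the TCQA arrays, against 2.01 and 1.96 on the control arrays and a margin of 0.45. The brightest of the 6, 1417287_PM_at, read 3.08 and 3.52 on the TCQA arrays, against 4.35 and 3.50 on the control arrays. Its difference was -0.62, and the groups overlapped.

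Under the matrix and small molecules were placed 4 of the named genes. Has1, a synthase of hyaluronan, the large sugar polymer of the dermis, read 4.08 and 4.17 on the TCQA arrays, against 2.55 and 3.30 on the control arrays. The means were 4.13 ± 0.06 on TCQA and 2.92 ± 0.53 on control (SD, n = 2 each), a difference of 1.21. Has3, of the same enzyme family, was also non-overlapping, with 2.50 and 3.54 on the TCQA arrays, against 1.71 and 2.47 on the control arrays, and a margin of 0.04. Both probe sets of Has2 overlapped.

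Fmo4, a flavin-containing monooxygenase, read 4.50 and 4.52 on the TCQA arrays, against 2.64 and 3.75 on the control arrays, and Control 1 was far below the other 3. Slc7a15, an amino acid transporter of the Slc7 family, read 2.97 and 3.03 on TCQA, against 1.28 and 2.22 on control. Cyp2d34, one of a cluster of closely related cytochrome P450 genes among which probes may not distinguish, read 2.77 and 2.49 on the TCQA arrays, against 1.52 and 1.78 on the control arrays.

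The remaining genes with a known role concern non-coding RNA, the nucleus and the germ line. Jpx, a long non-coding RNA that activates Xist in X-chromosome inactivation (chrX:103493558-103506425), read 3.97 and 3.73 on the TCQA arrays, against 2.53 and 2.79 on the control arrays. Its means were 3.85 ± 0.17 on TCQA and 2.66 ± 0.18 on control (SD, n = 2 each), a difference of 1.19. A second Jpx probe set, 1442137_PM_at, was also non-overlapping, with 4.61 and 4.63 on the TCQA arrays, against 3.28 on Control 1 and 4.48 on Control 2. Its difference of 0.74 was the highest among the other probe sets of these genes, and its margin over Control 2 was 0.12.

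The uncharacterized long non-coding RNA 4930403D09Rik read 3.07 and 3.70 on the TCQA arrays, against 1.46 and 2.37 on the control arrays. Atf7ip2, a homologue of the chromatin factor Atf7ip, read 2.68 and 2.70 on TCQA, against 1.46 and 1.88 on control. Of its other probe sets, 1427603_PM_at was non-overlapping, with 2.22 and 2.28 on the TCQA arrays, against 1.28 and 1.95 on the control arrays and a margin of 0.27. Ccer1, a protein of spermatids, read 2.92 and 2.70 on the TCQA arrays, against 1.50 and 1.94 on the control arrays. The list of germ cell and sperm genes does not hold Ccer1. Of its 54 probe sets, 31.5% were non-overlapping and higher and 1.85% lower, beside 17.9% and 10.9% of all probe sets. Its median difference was 0.35 with both controls and -0.01 over Control 2 alone. The list of neurons and glia had 27.6% higher and 0% lower, and that of leukocytes and inflammation 24.4% and 2.44%. None of the 54 met the rule, whose rate over all probe sets was 0.0977%.

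No role is given here for Prr22, Fam162b and Ccdc127. Prr22 had the highest log2 signal of the named probe sets, with 5.54 and 6.13 on the TCQA arrays, against 4.07 and 4.67 on the control arrays, a difference of 1.46. Fam162b read 3.19 and 3.09 on TCQA, against 1.87 and 2.29 on control, and Ccdc127 read 3.08 and 3.45 on TCQA, against 2.14 and 2.34 on control. The 3 other probe sets of Ccdc127 all overlapped between groups.

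Of the 29 genes, 19 had further probe sets, 39 in number, and 10 had none. Of the 39, 0 met the rule. The difference was positive in 24 (61.5%), and it was positive in 61.0% of all probe sets. Both TCQA values lay above both controls in 7 (17.9%), the same share as the 17.9% of all probe sets, and below both in 3 (7.69%), beside 10.9% of all. The median difference was 0.06 over the 39 and 0.12 over all probe sets. Of the 19 genes, 10 had another probe set with a higher mean signal than the one that met the rule.

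**Figure D3:**
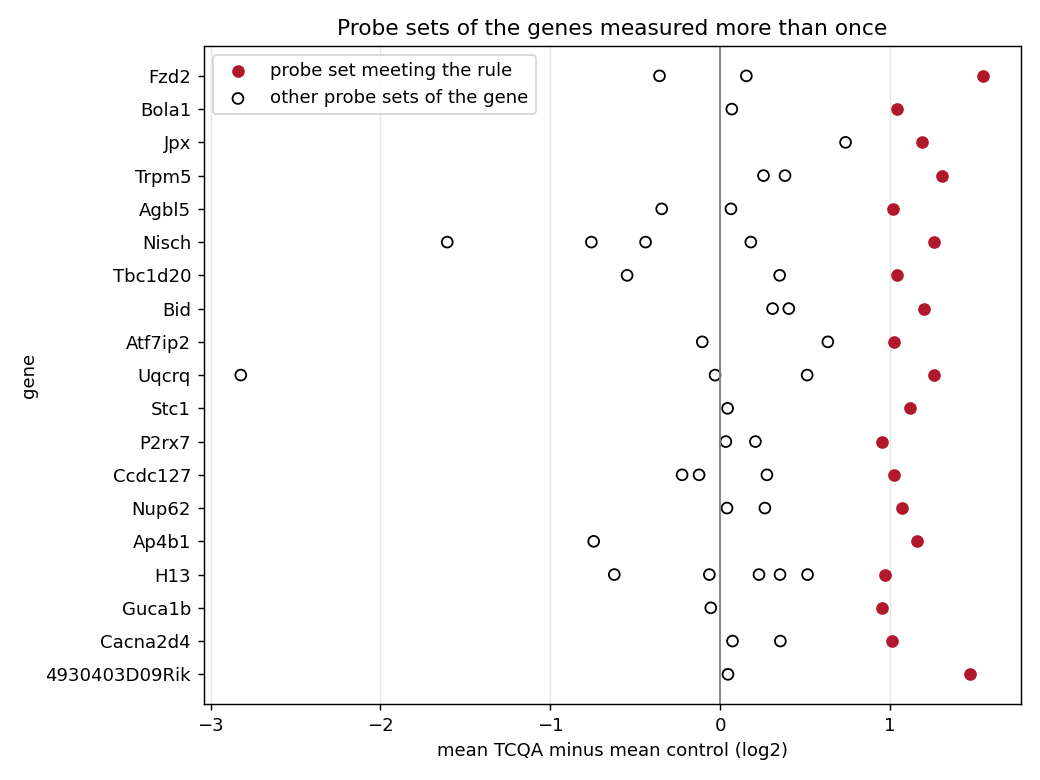
Mean TCQA minus mean control signal in log2 (horizontal axis) for the 19 genes measured by more than 1 probe set (rows). Filled red points are the probe sets that met the rule, between 0.95 and 1.55, and open circles are the 39 others, between -2.82 and 0.74.

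The 15 unnamed probe sets held the brightest values. Probe set 1447742_PM_at read 8.76 and 9.19 on the TCQA arrays, against 5.68 on Control 1 and 7.99 on Control 2. Probe set 1457632_PM_s_at read 6.21 and 7.10 on the TCQA arrays, against 3.75 and 5.31 on the control arrays, and 1451699_PM_at read 5.15 and 5.30 on TCQA, against 2.47 and 4.34 on control. In all 3 the 2 controls differed by more than the margin. Their differences, 2.14, 2.12 and 1.82, were the 3 largest of the 44 with both controls, and over Control 2 alone they were 0.98, 1.35 and 0.89, of which the first and the last lay below the 1.28 of Fzd2. The SDs of the controls were 1.64, 1.10 and 1.32. The values of the 15 on the TCQA arrays ran between 2.11 and 9.19, and 7 of the 15 had both under 4. Over the 15 the median difference was 1.10, and over the 29 named probe sets 1.09.

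Most of the 44 had low signals, as did most of the array, and signals of different probe sets do not compare as amounts of RNA. Both TCQA values were under 4 in 30 (68.2%) and under 5 in 40 (90.9%), beside 87.9% and 97.5% of all probe sets, while 4 had both at 5 or more and 2 had both at 6 or more. Their mean signal over the 4 arrays stood at a median percentile of 63.4 among all probe sets. By this mean, 14 of the 44 (31.8%) were below the median brightness. The mean includes the TCQA values that the rule required to be high. The median of the 44 was 2.05 on Control 1 and 2.52 on Control 2, against 2.30 and 2.55 over all probe sets. Of the 89 probe sets that met the rule in the opposite direction, 2.25% were below the median brightness. The ID form meant for a probe set matching 1 transcript only was carried by 41 of the 44 (93.2%), by 80.1% of all probe sets and by 73.0% of the 89.

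**Figure D4:**
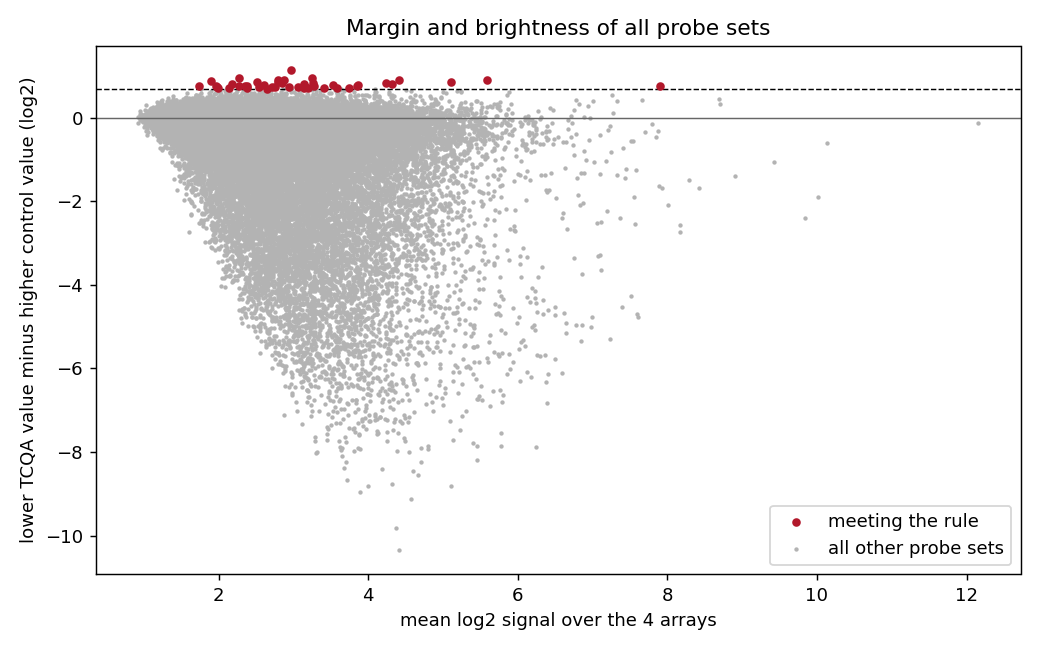
Margin, the lower TCQA minus the higher control value in log2 (vertical axis), against the mean log2 signal over the 4 arrays (horizontal axis) for 45037 probe sets in grey and the 44 that met the rule in red. The dashed line is the rule's 0.7; most red points lie at mean signals under 4.

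Control probe sets of the array gave a background measured in the same hybridizations. The 23 nonspecific probe sets, which match no transcript and are named for the number of G and C bases in their probes, were higher on both TCQA arrays than on both control arrays in 23 of 23. All 23 stood in the order Control 1, Control 2, TCQA 1, TCQA 2. Their difference was between 0.27 and 1.52, with a median of 0.38. The one with 25 G and C bases read 7.14 and 7.53 on the TCQA arrays, against 5.23 and 6.41 on the control arrays, and with a margin of 0.73 it met the rule itself.

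**Figure D5:**
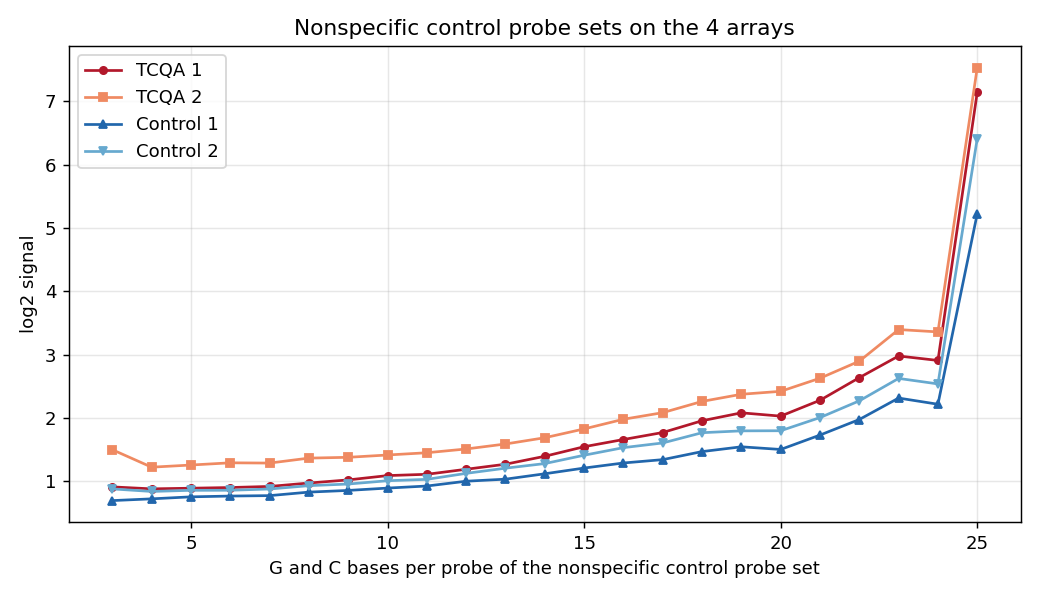
Log2 signal (vertical axis) of the 23 nonspecific control probe sets, by number of G and C bases per probe (horizontal axis), on TCQA 1, TCQA 2, Control 1 and Control 2. The TCQA lines lie above the control lines throughout, and the values at 25 bases reach 7.53 on TCQA 2.

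Leaving out the one with 25 G and C bases, the highest nonspecific signal was 2.98 on TCQA 1 and 3.40 on TCQA 2, against 2.31 on Control 1 and 2.62 on Control 2. Of the 44 probe sets, 13 were under this level on TCQA 1 and 16 on TCQA 2, against 27 on Control 1 and 23 on Control 2. Among all probe sets 66.3% and 80.4% were under it on the TCQA arrays, against 50.7% and 52.8% on the control arrays. The 18 hybridization spike probe sets, which report bacterial and phage transcripts added to the sample in known amounts, had medians of 10.4 on TCQA 1 and 10.8 on TCQA 2, against 6.71 on Control 1 and 10.4 on Control 2. The part of these control signals in the 44 differences was not tested.

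Some values were shared to the last digit by many probe sets. On TCQA 2, 720 probe sets had 1.85905, the commonest value of that array, and the value 3.70146 was held by Bid, by 4930403D09Rik and by the Fzd2 probe set 1418534_PM_at. Ccer1 and Atf7ip2 both had 2.70321 on TCQA 2, a value that each shared with 643 other probe sets. The Control 2 value of Jpx, 2.78821, which set its margin, was shared with 129 others. A value shared with at least 10 other probe sets on some array was found in 13 of the 44 (29.5%) and in 21.6% of all. Their part in the result was not tested.

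The 29 genes lay on 15 chromosomes, with at most 3 on any one. RefSeq promoters (GRCm38.p6, 250 bases before to 50 after the start) were matched for 22 of the 29 genes, 27 promoters in all, and Fzd2 had no entry. Their median G and C content was 59.3%, and that of 32851 promoters 52.7%. Motifs were searched on both strands. CCAAT was found in 15 of the 27 (55.6%, in 12 genes, with overlapping promoters of Agbl5 among them) and in 37.4% of all promoters. The TCF/LEF core CTTTGAT was in 1 (3.70%), that of Fam162b, and in 3.73% of all. CATGTG, an E-box of the kind MITF binds, was in 3 (11.1%), those of Agbl5, Fam162b and Farp2, and in 14.2% of all. Other forms of the E-box were not searched. TGACGTCA, the cyclic AMP response element, was in 1 (3.70%), that of Has1, and in 1.79% of all. The AP-1 motif TGACTCA was in 1 (3.70%), that of P2rx7, and in 5.20% of all. TATAAA was in 2 (7.41%), those of Jpx and Slc7a15, and in 13.6% of all.

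The promoters of Fam162b, Has1 and Jpx are shown because they hold the TCF/LEF, cyclic AMP and TATA letters named above, with every searched motif in capitals on whichever strand it was found. They are written in the direction of the gene, on the minus strand for Fam162b (chr10:51590411-51590710) and Has1 (chr17:17855139-17855438) and on the plus strand for Jpx (chrX:103493308-103493607).
Fam162b: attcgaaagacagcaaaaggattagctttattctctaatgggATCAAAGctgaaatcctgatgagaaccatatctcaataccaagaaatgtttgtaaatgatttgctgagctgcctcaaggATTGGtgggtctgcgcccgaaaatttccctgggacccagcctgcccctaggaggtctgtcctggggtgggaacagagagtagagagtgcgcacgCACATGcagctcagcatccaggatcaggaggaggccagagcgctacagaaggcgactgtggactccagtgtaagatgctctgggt
Has1: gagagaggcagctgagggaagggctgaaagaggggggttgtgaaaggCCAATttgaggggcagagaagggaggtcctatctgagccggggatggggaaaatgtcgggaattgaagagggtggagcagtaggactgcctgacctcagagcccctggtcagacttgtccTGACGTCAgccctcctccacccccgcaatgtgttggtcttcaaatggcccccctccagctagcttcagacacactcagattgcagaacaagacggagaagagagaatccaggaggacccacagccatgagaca
Jpx: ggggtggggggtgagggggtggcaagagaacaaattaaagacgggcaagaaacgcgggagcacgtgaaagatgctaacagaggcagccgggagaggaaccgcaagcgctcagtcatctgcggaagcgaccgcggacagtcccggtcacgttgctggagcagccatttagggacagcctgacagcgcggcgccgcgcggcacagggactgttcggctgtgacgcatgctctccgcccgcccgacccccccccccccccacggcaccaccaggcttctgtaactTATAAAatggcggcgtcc
A match is a description of the letters in the window and not of binding.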

How the data were processed

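Skin RNA of 2 TCQA and 2 control samples was measured on 4 arrays. For each array the authors deposited a log2 value for every probe set, from RMA, which corrects the background, normalizes and summarises the probes. Per the submitters' processing notes, RMA stood beside Transcriptome Analysis Console and Affymetrix Expression Console, and whether all arrays were normalized together is not given in the sources used here. The values are log2 signals, so no depth applies, and having 4 arrays limits the precision. Of 45141 probe sets, 104 Affymetrix controls were left out of the rule and the test.

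Gene names came from the platform annotation: 28898 name 1 gene, 551 several and 15588 none. Of the 28898, 28689 had an identifier in the RefSeq table of GRCm38.p6, and no symbol changed. Named by rule were the genes of the 20 largest margins, those in a gene list and the 10 brightest, 21 in all. The 8 other genes, the gene families and the role groups were chosen after their values were seen. The members and lists were chosen with earlier results of these data known.

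Groups were compared over the whole table with limma 3.58.1 in R 4.3.3 (two-sided, Benjamini-Hochberg). The test was also run on simulated arrays with a large planted shift and the spread of the TCQA pair. The control arrays lay farther apart than that pair, so this run does not show how the test behaves on these data. Tables were made with Python 3.11.15, pandas 2.3.3 and numpy 2.4.6, and plots with matplotlib 3.10.9. Tried as alternatives were median centring, another quantile normalization, leaving out dim or cross-matching probe sets, margins of 0.5 and 1, each array left out, limma's trend and robust options, an unmoderated test and a replicate block.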

Additional observations from a re-analysis of the deposited data

Results flagged for a closer look

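The nonspecific control probe sets, which no comparison uses, were higher on both TCQA arrays than on both control arrays in 23 of 23. The nonspecific probe set with 25 G and C bases had a margin of 0.73 of the lower TCQA over the higher control value. The hybridization spike probe sets, also outside the comparison, had a median difference of 2.03 of the TCQA mean from the control mean. They were lowest on Control 1 and highest on TCQA 2 in 18 of 18.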

How the results depend on the processing

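The count of 44 probe sets (29 genes) depended on scaling and margin. A further quantile normalization gave 128 (78 genes), 40 of them among the 44, with 97 lower on TCQA, so that 56.9% of the calls were higher in place of 33.1%, and sums of both directions of 225 for TCQA against control and 179 for the pairs sharing a number, in place of 133 and 102. Centring the arrays on the median gave 44, of which 38 were shared. Without dim probe sets 30 remained (19 genes), and without cross-matching ones the pairs sharing a number summed to 66. A margin of 0.5 gave 230 (136 genes) and sums of 516, 428 and, for the crossed pairs, 2940. A margin of 1 gave 1 (1 gene) and sums of 12, 16 and 333. Leaving out 1 array gave counts between 90 without Control 1 and 7932 without Control 2 (54 to 4035 genes), with 278 without TCQA 2 and 1329 without TCQA 1.

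The median difference of the 44 lay between 0.88 and 1.32 with 1 array left out, which the rule itself keeps above 0.7. That of the other probe sets lay between -0.08 without Control 1 and 0.36 without Control 2, and at -0.02 after centring, so it has no settled direction. The 29 named differences ran between 0.72 and 2.21 over the alternatives, and where an array is left out the rule fixes their sign. The count of 34 with a difference of at least 1, an alternative added after seeing the data, ran from 8 without Control 1 to 41 without Control 2. The limma count stayed at 0 in 11 of 12 alternatives. It was 0 with the replicate block and 0 with the crossed pairing (281 and 69 at an unadjusted p under 0.05). The crossed pairing was added after seeing the data, since same-numbered arrays deviated with r = -0.12, and neither pairing is stated by the labels. Leaving out 1 array gave 0 to 10538 calls, the highest without Control 2, with 3307 higher and 7231 lower and Control 1 assumed to vary like the TCQA arrays. The cause of these changes was not tested.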
